A study of Gallus gallus with 9 samples.

Results

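Some liver genes differed far more between broilers on the same feed than most others did, and 49 of them are described here. They were chosen from 5407 genes (0.906%) that had a single gene symbol and a mean of 9 or more on the log2(signal + 16) scale, a signal of about 496. A gene entered when the spread between birds of the same group, pooled over both groups as a standard deviation (SD) with 7 degrees of freedom, was 0.9 or more on that scale. Genes whose sorted values showed a gap of 2.5 or more were left out, and the brightest probe set that met the rule stood for each gene. The spread between birds therefore chose the genes, and it is given as a description without a test.

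The birds were ROSS308 broilers, commercial chickens bred for meat, and liver RNA of each was read on its own 1-colour Affymetrix array at an age of 35 days. The control group of 4 birds ate a standard diet from shortly after hatching. The Se-yeast group of 5 birds ate the same standard diet with selenized yeast, sold as Sel-Plex, which supplied 0.5 mg of added selenium per kg of feed. Both groups fed ad libitum, and the submitters excluded a further control sample for its quality. The labels number the birds as biological replicates within each group and name neither sex, pen nor batch. The tissue label was checked against hepatocyte markers, of which 13 of the 15 listed, ALB and TTR among them, had a mean of 9 or more.

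In birds the liver, and not fat tissue, is the main site of fatty acid synthesis. Enzymes of that pathway are induced by feeding and insulin and repressed by fasting, when the liver turns to the oxidation of fatty acids. Liver tissue also contains blood, and with it heterophils, the avian counterpart of neutrophils, whose granules carry beta-defensins and cathelicidins that kill microbes. Metallothioneins are small proteins that bind zinc and copper, and acute phase proteins such as serum amyloid A are made by hepatocytes in response to inflammatory signals.

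The pooled SD of the 49 genes lay between 0.906 and 1.52, with a median of 1.06. For comparison, the median over all 5407 genes, each on its brightest probe set, was 0.234 and the 99th percentile 0.797. In signal, the highest bird stood 4.80 to 45.02 times above the lowest, with a median of 9.75. The genes nearest the SD limit were MAP3K7CL and DBI on the inside, at 0.906 and 0.907, and IGLL1 and PNPLA3 on the outside, at 0.894 and 0.890. At the limit on the mean, BLB1 and MT3 lay inside at 9.06 each, and HSCB at 8.99 and DEPDC7 at 8.98 lay outside. At the limit on the gap, CYP7A1 at 2.37 and BLB1 at 2.42 lay inside, and MHCY4 at 2.59 and ACSBG2 at 2.82 lay outside.

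**Figure D1:**
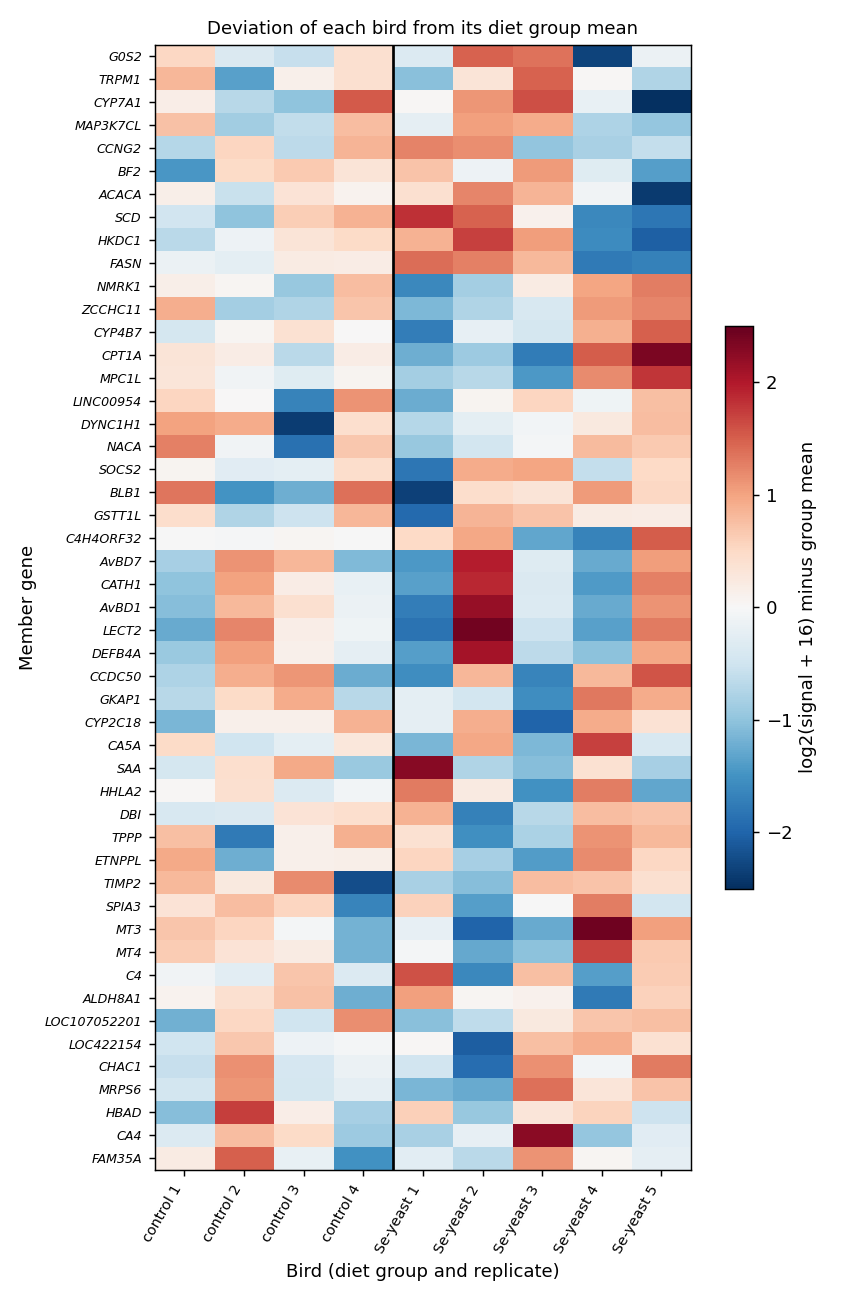
Deviation of each of the 49 genes from the mean of its own diet group, in log2 units, for each of the 9 birds. Rows are genes and columns are birds, and the colour scale gives the deviation. The granule, FASN and CPT1A clusters show as blocks of rows with a shared order of birds, and most other rows follow an order of their own.

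A larger spread in the Se-yeast group was common both in the set and over all genes. The SD was larger in that group for 38 of the 49 genes (77.6%), while over all 5407 genes the same held for 67.1%. The bird farthest from its group mean was Se-yeast replicate 2 for 10 genes, replicates 1 and 3 for 8 each, replicate 4 for 7 and replicate 5 for 6, and a control bird for the other 10. Over all 5407 genes the farthest bird was Se-yeast replicate 1, 2, 3, 4 or 5 for 14.6%, 14.4%, 11.7%, 13.0% and 18.5%. Each control bird was the farthest for 6.2% to 7.6%. No single bird was the farthest for most of the 49 genes. Leaving out 1 bird at a time, 17 genes kept an SD of 0.9 or more whichever bird was left out, among them the 5 genes of the granule cluster described next. The other 32 fell below 0.9 without at least 1 of the birds, and 10 of them below 0.7.

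Within-group deviations were correlated between all pairs of genes over the 9 birds and grouped by average linkage at r = 0.7. This gave 3 clusters of 4 or more genes, which together held 14 of the 49. The correlations describe the same 9 arrays from which the genes were chosen, and no test is attached to them. The remaining 35 genes stood alone, in pairs or in threes.

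Genes for heterophil granule proteins and antimicrobial peptides formed the tightest cluster. It held LECT2, known in chicken as the granule protein gene MIM1, the beta-defensin genes AvBD1, AvBD7 and DEFB4A (a RefSeq synonym of the latter is AvBD2), and CATH1, which encodes a cathelicidin. LECT2 had the largest SD of all 49 genes, 1.52, and its signals were 1120.2, 6246, 2998 and 2477 in control replicates 1 to 4 and 503, 9940.0, 1281, 714 and 4589 in Se-yeast replicates 1 to 5. It was high in Se-yeast replicates 2 and 5 and in control replicate 2, low in Se-yeast replicates 1 and 4, and the groups overlapped widely. DEFB4A had signals of 1489, 5796, 3120.4 and 2448 in control replicates 1 to 4 and 712, 7889, 1173, 912 and 3666 in Se-yeast replicates 1 to 5, the same birds standing at the top and at the bottom. CATH1 ran from 849 to 3484 in control and from 468 to 4793 in Se-yeast birds, AvBD1 from 974 to 3647 and 328 to 5093, and AvBD7 from 838 to 4003 and 517 to 5658. In all 5 genes Se-yeast replicate 2 was the highest bird.

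Correlations between these genes were 0.93 to 0.99 over the 9 birds, and 0.87 to 0.99 over the 7 birds left without Se-yeast replicates 1 and 2, the farthest from the middle. The genes most like LECT2 were DEFB4A, AvBD1 and CATH1, each at r = 0.99. AvBD1 and DEFB4A are next to each other on chromosome 3 in the GRCg7b assembly, and AvBD7 lies 1 protein-coding gene from DEFB4A. LECT2 and CATH1 lie on other chromosomes and followed the same order of birds. A further pair of beta-defensin genes, chosen after their values were seen, was too dim for the rule but ran in parallel. AvBD6 had signals of 204, 850.0, 411 and 301 in control replicates 1 to 4 and 37, 1043, 107, 40.6 and 450.2 in Se-yeast replicates 1 to 5, with r = 0.99 to the cluster mean, and AvBD4 had r = 0.94. Other beta-defensin genes did not follow. AvBD8, AvBD9, AvBD10 and AvBD13, all with a mean of 9 or more, had r of 0.07, -0.40, 0.02 and -0.26 to the cluster mean, and the dim AvBD5, AvBD11 and AvBD12 had 0.01, -0.25 and 0.19. The beta-defensins are a family of related copies, and the probe sets of AvBD7, AvBD6, AvBD4 and CATH1 can also read related transcripts, so these readings may not be fully separate. A second, dimmer probe set of AvBD1, at a mean of 7.43 and an SD of 0.88, had r = -0.50 with the one chosen.

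Markers of heterophils were set beside this cluster. Of the 17 symbols listed, AvBD2 is a synonym of DEFB4A, which is in the cluster, and it was not matched by name. Under the symbols as listed 6 had a probe set, and CATH1 and AvBD1 are themselves in the cluster. Among the other 4, CSF3R and MMP9 lay below the signal filter of 64.7, LYZ had r = 0.52 to the cluster mean and LYG2, a goose-type lysozyme gene, had r = -0.16. The summed signal of these 4 genes, most of it from LYG2, ran from 10785 to 32770 in control and from 4476 to 17497 in Se-yeast birds, and it was highest in control replicate 1, where the granule genes were low. The part of heterophil number in the spread of the cluster was not tested. In a piece of tissue, fewer cells of a type and less RNA per cell cannot be told apart.

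**Figure D2:**
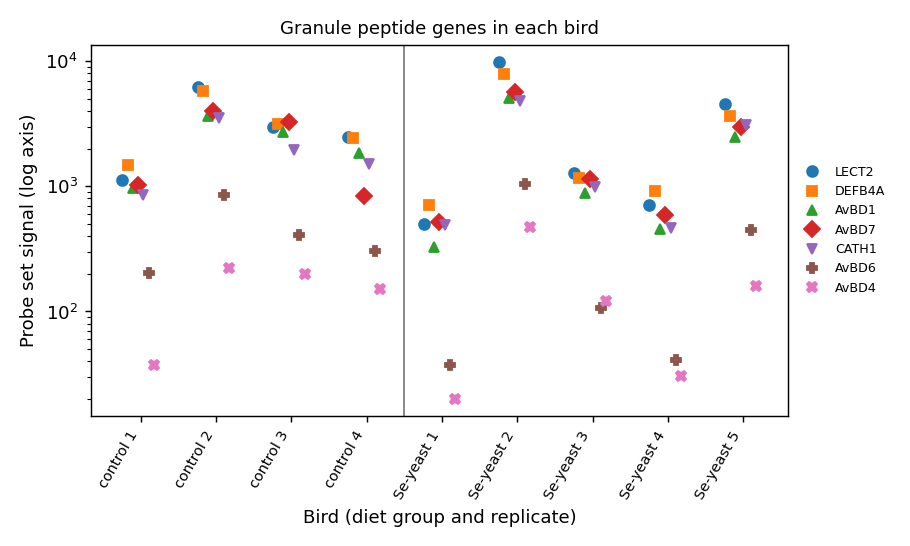
Probe set signal (log axis) of the 5 genes of the granule cluster and of AvBD6 and AvBD4, which lay below the limit on the mean, in each of the 9 birds. All rise and fall together, with Se-yeast replicate 2 at the top and Se-yeast replicates 1 and 4 at the bottom.

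The second cluster held 3 fatty acid synthesis genes and a hexokinase family gene, and it was low in Se-yeast replicates 4 and 5. Its members were FASN, which encodes fatty acid synthase, ACACA, the acetyl-CoA carboxylase that supplies its substrate, SCD, the desaturase that makes oleate, and HKDC1, the hexokinase family gene. FASN had signals of 33860.0, 31545, 43105 and 42349.5 in control replicates 1 to 4 and 54630.0, 49666, 36322, 6061 and 6409 in Se-yeast replicates 1 to 5. The 3 other Se-yeast birds reached or passed the control range, while replicates 4 and 5 stood far below it. SCD had signals of 2589.9, 1805, 5595 and 6629 in control replicates 1 to 4 and 6658, 5204, 2012, 605 and 526 in Se-yeast replicates 1 to 5. HKDC1 had signals of 3645, 5363, 7318 and 8195 in control replicates 1 to 4 and 4309.6, 7683, 4874, 779 and 562 in Se-yeast replicates 1 to 5. For both genes replicates 4 and 5 were again below every other bird, although the controls varied more than they did for FASN.

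ACACA followed less closely. Its signals were 12222, 7459.9, 13939 and 11741 in control replicates 1 to 4 and 7468, 13165, 10179.8, 5299 and 1051 in Se-yeast replicates 1 to 5, so only Se-yeast replicate 5 stood far from the rest, and without that bird its SD was 0.49 in place of 1.11. Correlations within the cluster were 0.72 to 0.95 over the 9 birds and 0.59 to 0.93 without Se-yeast replicates 2 and 5. G0S2, which encodes an inhibitor of the main triglyceride lipase, belongs to the same pathway list but not to the cluster, with 9779, 5297, 4578 and 8981 in control replicates 1 to 4 and 3263, 11658, 10634, 820.0 and 3742 in Se-yeast replicates 1 to 5. It too was lowest in Se-yeast replicate 4, but the next lowest bird was Se-yeast replicate 1. Without replicate 4 its SD was 0.78 in place of 1.22.

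Among the Se-yeast birds the third cluster was high where the second was low. CPT1A, which encodes the enzyme that admits long-chain fatty acids to mitochondria for oxidation, had signals of 499, 455, 242 and 455 in control replicates 1 to 4 and 321, 406, 219, 2231 and 4012 in Se-yeast replicates 1 to 5. Se-yeast replicates 4 and 5 stood above all 7 other birds, which lay within a narrow range. MPC1L, of the mitochondrial pyruvate carrier family, had signals of 807, 608, 526 and 685 in control replicates 1 to 4 and 465, 521, 304, 1944 and 2965 in Se-yeast replicates 1 to 5 and ran almost in parallel (r = 0.99). Brighter probe sets of MPC1L, at means of 13.36 and 13.83, followed it at r = 0.83 and 0.92 with smaller SDs, 0.47 and 0.46. CYP4B7, a cytochrome P450 gene, had signals of 3012, 4264, 5373 and 4132 in control replicates 1 to 4 and 1758, 5067, 4298, 10907 and 16514 in Se-yeast replicates 1 to 5, again with replicates 4 and 5 at the top. Its lowest bird was Se-yeast replicate 1, and without that bird its SD was 0.69 in place of 0.97.

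NMRK1, whose product phosphorylates nicotinamide riboside on the way to NAD, and ZCCHC11, which encodes an RNA uridylyltransferase, were less exclusive to these birds. NMRK1 was 962 to 3189.9 in control and 518 to 3975 in Se-yeast birds, and control replicate 4, at 3189.9, came close to Se-yeast replicate 4. ZCCHC11 was 703 to 2439 in control and 473 to 2486 in Se-yeast birds, with control replicates 1 and 4 in the same high range as Se-yeast replicates 4 and 5. Correlations within this cluster were 0.63 to 0.99, and 0.22 to 0.98 without Se-yeast replicates 1 and 5, so the weaker links rested on those birds. By Spearman correlation this cluster did not hold together, with CPT1A and MPC1L grouped with MT3 and MT4, NMRK1 and ZCCHC11 with BLB1 and NACA, and CYP4B7 in no cluster. The mean deviations of the FASN and CPT1A clusters had r = -0.91 over the 9 birds. They had opposite signs in every Se-yeast bird and in control replicates 1 and 3. In control replicate 2 both were negative, at -0.48 and -0.13, and in control replicate 4 both were positive, at 0.40 and 0.34. Neither cluster went with the granule cluster, at r = 0.00 and 0.08.

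**Figure D3:**
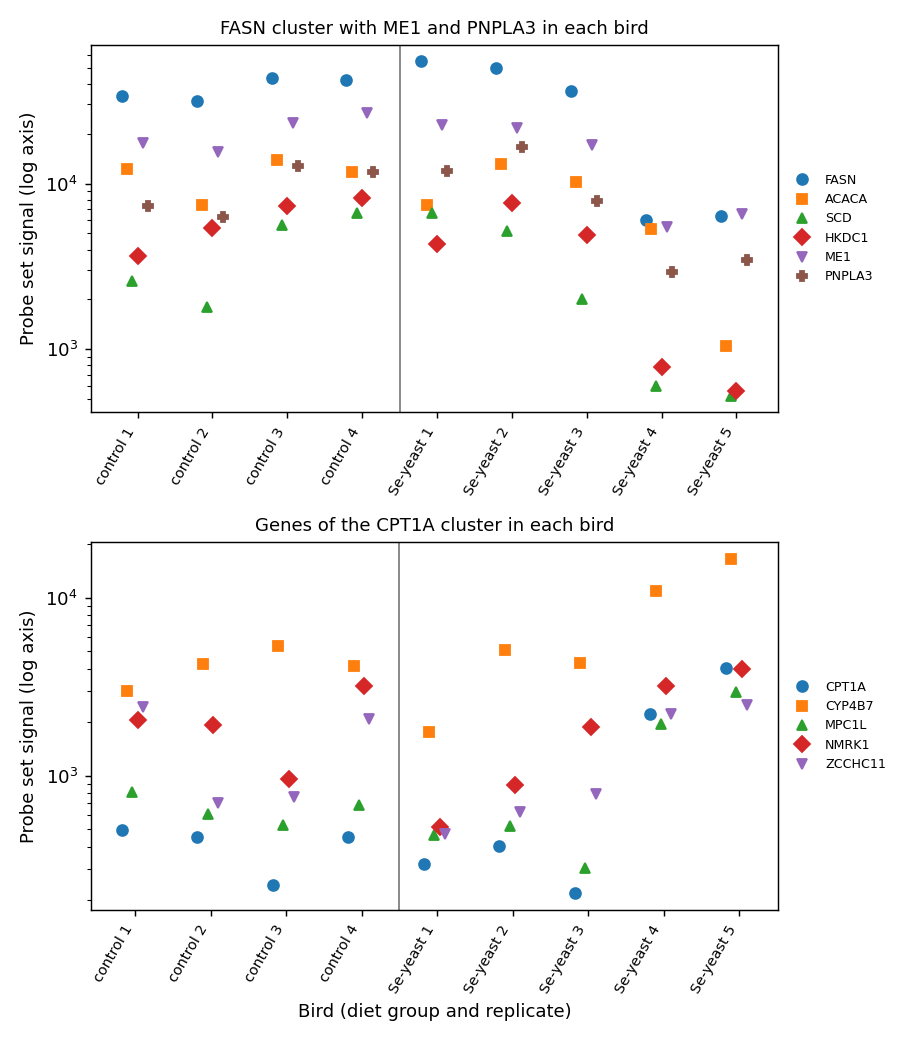
Probe set signal (log axis) in each bird for the FASN cluster (FASN, ACACA, SCD and HKDC1) with ME1 and PNPLA3, which lay below the SD limit (top), and for the 5 genes of the CPT1A cluster (bottom). In Se-yeast replicates 4 and 5 the genes of the upper panel are low and those of the lower panel high, with FASN at 6061 and 6409 and CPT1A at 2231 and 4012.

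Other genes of lipid synthesis were read for the order of the same birds, a choice made after the values were seen. Of 25 genes in the list of fatty acid and triglyceride synthesis with a mean of 9 or more, 4 were among the 49 (FASN, ACACA, SCD and G0S2). Of the other 21, 11 (52.4%) had their lowest values among Se-yeast birds in replicates 4 and 5, while 20.8% of all 5407 genes did. That order was also more frequent than over all genes in some lists of other functions. It held for 10 of 21 genes (47.6%) of endoplasmic reticulum folding, 4 of 8 (50%) of the circadian clock and 6 of 15 (40%) of bile acids. For thyroid hormone it held for 4 of 7 (57.1%), where ME1 and THRSP are shared with the list of fatty acid and triglyceride synthesis. ME1, the malic enzyme that supplies NADPH for fatty acid synthesis, had signals of 17522, 15554, 23206 and 26669 in control replicates 1 to 4 and 22666, 21532, 17000.2, 5444 and 6519 in Se-yeast replicates 1 to 5. PNPLA3, a lipid droplet protein gene just below the SD limit, had r = 0.95 to the mean of the FASN cluster, ME1 0.96 and THRSP, a lipogenic gene induced by thyroid hormone, 0.94. High r to that mean was not rare. Of 5358 genes outside the 49, 607 had an r to it above the limit used for clustering. A further 649 had an r below the negative of that limit.

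Cholesterol synthesis genes had no member among the 49. Among the Se-yeast birds, however, 12 of 19 (63.2%) were lowest in replicates 4 and 5, SQLE, LSS and MVD among them. HMGCS1, which encodes the hydroxymethylglutaryl-CoA synthase that feeds this pathway, went the other way. Its signals were 5143, 5449.7, 5939 and 7003 in control replicates 1 to 4 and 12060.0, 6691, 6047, 24096 and 26818 in Se-yeast replicates 1 to 5, highest in Se-yeast replicates 4 and 5, on a probe set that can also read related transcripts. Of the 49 genes themselves, 7 (14.3%) were lowest and 13 (26.5%) highest in replicates 4 and 5 among the Se-yeast birds. Over all genes the shares were 20.8% and 20%, so the set as a whole did not share that order. In the list of fatty acid oxidation and fasting, CPT1A and CYP4B7 were the only ones of 17 genes among the 49. Among the Se-yeast birds, 2 of the other 15 (ACSBG2 and AACS) were lowest in replicates 4 and 5, and 3 (HADHB, CYP4V2 and LPL) were highest. That share of 20% was the same as over all genes.

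Several other measures were set beside these birds. The ratio of 3′ to 5′ signal of the ACTB control probes, which rises as RNA breaks down, was 2.66 and 2.40 in Se-yeast replicates 4 and 5, 1.65 to 2.46 in the other Se-yeast birds and 1.89 to 2.61 in controls. The same ratio of GAPDH was 0.801 and 0.773, inside the range of 0.752 to 0.872 over the other birds. All 8 adipocyte markers had a probe set above the signal filter, and their summed signal was 4341 and 6552 in replicates 4 and 5, 4157 to 4917 in the other Se-yeast birds and 3273 to 4772 in controls. The part of RNA quality or of adipose tissue in these clusters was not tested.

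MT3 and MT4, adjacent metallothionein genes on chromosome 11, varied together at r = 0.98. MT4 had signals of 4992, 4044, 3718 and 1407 in control replicates 1 to 4 and 8978, 3824, 4547, 29873 and 14694 in Se-yeast replicates 1 to 5, and MT3 had 439.9, 389, 257 and 107 in control replicates 1 to 4 and 758, 207, 358, 4826 and 1801 in Se-yeast replicates 1 to 5. Both were highest in Se-yeast replicate 4, then in replicate 5, and lowest in control replicate 4, and the groups overlapped. The highest bird exceeded the lowest by more for MT3 than for any other of the 49 genes. SPIA3 was also highest in Se-yeast replicate 4 and lowest in control replicate 4, with 999.6, 1356, 1157 and 241 in control replicates 1 to 4 and 3237, 825, 2153, 5299 and 1573 in Se-yeast replicates 1 to 5, and had r = 0.78 with MT4.

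CHAC1, which encodes an enzyme that degrades glutathione and is induced by amino acid shortage, had signals of 248, 846, 278 and 338 in control replicates 1 to 4 and 898, 325, 2771, 1202 and 3109 in Se-yeast replicates 1 to 5. Every Se-yeast bird but replicate 2 stood above the highest control, replicate 1 only by a little. MRPS6, a mitochondrial ribosomal protein gene, was the most like it (r = 0.92) on the probe set chosen, with 443, 1339.5, 448 and 519.5 in control replicates 1 to 4 and 501, 456, 2952, 1387 and 1859 in Se-yeast replicates 1 to 5. LOC422154, an unnamed gene, had r = 0.84 with CHAC1. Its SD fell from 0.96 to 0.44 without Se-yeast replicate 2, the lowest bird.

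The major histocompatibility complex on chromosome 16 gave 3 of the genes, BLB1 (class II beta chain), BF2 (class I heavy chain) and the complement gene C4. C4 and BF2 are neighbours there, and 9 other protein-coding genes separate BF2 from BLB1. BLB1 had signals of 944, 119, 147 and 978 in control replicates 1 to 4 and 122, 923, 854, 1436 and 983 in Se-yeast replicates 1 to 5. Control replicates 2 and 3 and Se-yeast replicate 1 were low and the other 6 birds high. BF2 had 1603, 6128, 6941 and 5563 in control replicates 1 to 4 and 5639, 3125, 7202, 2777 and 1309.7 in Se-yeast replicates 1 to 5, low in control replicate 1 and Se-yeast replicate 5. C4 had 4109.5, 3671, 7122 and 3452 in control replicates 1 to 4 and 8698, 926, 4827, 1094 and 4465 in Se-yeast replicates 1 to 5, low in Se-yeast replicates 2 and 4. The 3 genes did not share an order of birds, with r = 0.27 between C4 and BF2 and -0.57 and -0.55 between BLB1 and each of them. The probe sets of BLB1 and BF2 are of the kind that can read related sequences, and both genes belong to families of closely related copies, so their values are uncertain. Those of C4 are uncertain too, as a brighter probe set had an SD of 0.19 and r = -0.40 with the one chosen.

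SAA, the serum amyloid A gene of the acute phase response, was highest in Se-yeast replicate 1. Its signals were 2064, 3743, 5428 and 1467 in control replicates 1 to 4 and 13523, 1623, 1312, 3591 and 1541 in Se-yeast replicates 1 to 5. SOCS2, a feedback inhibitor of growth hormone signalling, ran against it (r = -0.95), with 1525, 1199, 1232 and 1989.5 in control replicates 1 to 4 and 494, 3354, 3500.1, 1157 and 2475 in Se-yeast replicates 1 to 5. GSTT1L, a theta class glutathione transferase gene, did so too (r = -0.94), with 6883, 3002, 3543 and 8988 in control replicates 1 to 4 and 805, 5695, 5184, 3616 and 3608 in Se-yeast replicates 1 to 5. In both genes Se-yeast replicate 1 was the lowest of the 9 birds, and without it their SDs were 0.57 and 0.59 in place of 0.93 and 0.99, and that of SAA 0.75 in place of 1.19. The same bird had the highest summed signal of the 12 macrophage markers with a probe set, 122125, where the other birds lay between 84482 and 117203, and of the 14 hepatocyte markers, 920494, where the others lay between 503025 and 736324. Its sums were also the highest for the B cell and plasma cell, bile duct cell and stellate cell and fibroblast lists, at 4464, 9336 and 40115, where the other birds reached at most 3676, 8540 and 39815. The part of these cell types in the values of that bird was not tested. Of 33 acute phase and complement genes with a mean of 9 or more, SAA, LECT2 and C4 were the ones among the 49, and the median SD of that list was 0.232.

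CYP7A1, the rate-limiting enzyme of bile acid synthesis, spanned 41.3-fold. Its signals were 4425, 2417, 1964 and 11369 in control replicates 1 to 4 and 1739, 3648, 5209, 1484 and 275 in Se-yeast replicates 1 to 5, highest in control replicate 4 and lowest in Se-yeast replicate 5. MAP3K7CL was the most like it (r = 0.86), with 4898, 1595, 1913 and 5022 in control replicates 1 to 4 and 1523, 3620.1, 3427, 1037 and 910.0 in Se-yeast replicates 1 to 5. CYP7A1 was the only one of the 49 in the list of bile acid synthesis and transport, which had 16 genes with a mean of 9 or more. CYP2C18, a cytochrome P450 gene of drug metabolism, had 6541, 15795, 15727 and 26422 in control replicates 1 to 4 and 8189, 18002, 2374, 18236 and 12332 in Se-yeast replicates 1 to 5. Se-yeast replicate 3 was the lowest bird, and without it the SD was 0.71 in place of 1.07.

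**Figure D4:**
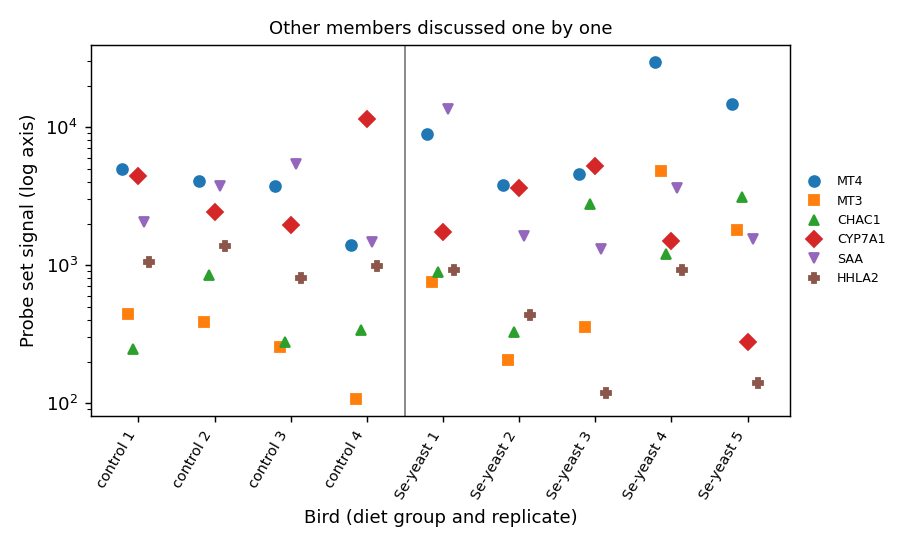
Probe set signal (log axis) in each bird for MT4, MT3, CHAC1, CYP7A1, SAA and HHLA2. The order of birds differs from gene to gene: SAA is highest in Se-yeast replicate 1, MT3 and MT4 in Se-yeast replicate 4, CHAC1 in Se-yeast replicate 5 and CYP7A1 in control replicate 4.

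HBAD, a haemoglobin alpha chain gene of red cells, which carry nuclei and RNA in birds, had signals of 3887, 27030.4, 9189.9 and 4616 in control replicates 1 to 4 and 10847, 3715, 8824, 10495 and 4959.6 in Se-yeast replicates 1 to 5. Control replicate 2 was the highest bird, and without it the SD was 0.68 in place of 0.98. The summed signal of the 9 other erythrocyte markers with a probe set was 20613 to 48778 in control and 17836 to 42509 in Se-yeast birds, and it was highest in the same bird. The marker HBZ alone lay below the signal filter. The part of blood content in the spread of HBAD was not tested.

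Genes of phospholipid, carbonate, aldehyde and acyl-CoA metabolism varied singly or in pairs. ETNPPL, which breaks down phosphoethanolamine, went with TPPP, a tubulin polymerisation factor (r = 0.90), both highest in Se-yeast replicate 4 and lowest in control replicate 2. ETNPPL ran from 721 to 3318 in control and 1168 to 7071 in Se-yeast birds. CA4, a membrane-bound carbonic anhydrase, stood at 5564 in Se-yeast replicate 3 and at 583 to 2504 in the others, and without that bird its SD was 0.60. CA5A, the mitochondrial form, was high in Se-yeast replicates 4 and 2, at 3994 and 2393, and at most 921 elsewhere. ALDH8A1, an aldehyde dehydrogenase gene, was lowest in Se-yeast replicate 4 at 757 and highest in Se-yeast replicate 1 at 5293. Brighter probe sets of CA5A and ALDH8A1 varied far less, with SDs of 0.19 and 0.29. DBI, the acyl-CoA binding protein gene, was lowest in Se-yeast replicate 2 at 253, and its SD without that bird was 0.61.

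The remaining genes shared no list. CCDC50 had signals of 894, 2879, 3321 and 641 in control replicates 1 to 4 and 667, 3548, 630.4, 3544 and 5956 in Se-yeast replicates 1 to 5, with low and high birds in both groups. GKAP1, which lies with NMRK1 on chromosome Z, was most like CCDC50 (r = 0.81) and ran against MAP3K7CL (r = -0.89). NMRK1 and GKAP1 had r = 0.20, so the pair on the sex chromosome did not share an order of birds. HHLA2, of the B7 family of T cell ligands, was 809.9 to 1365 in control birds and 118 to 929 in Se-yeast birds, lowest in Se-yeast replicates 3 and 5. On the probe sets chosen, DYNC1H1, the dynein heavy chain gene, and NACA, a factor that binds nascent proteins, had r = 0.89. Both were lowest in control replicate 3, at 156 and 243. Without that bird the SD of DYNC1H1 was 0.49. Brighter probe sets varied far less, with SDs of 0.17 for DYNC1H1 and 0.27 to 0.39 for NACA. TIMP2, an inhibitor of matrix metalloproteinases, was lowest in control replicate 4 at 424 (SD 0.76 without that bird, 1.20 with it) and ran against the cyclin gene CCNG2 (r = -0.83). TRPM1, FAM35A, LINC00954, LOC107052201 and C4H4ORF32 had SDs of 0.92 to 1.06.

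A gene's other probe sets give a second reading of the same RNA. The rule had screened them as well, so any probe set brighter than the one chosen had failed its limit on the SD or on the gap. A small SD on a brighter probe set thus follows in part from how the genes were chosen. Of the 49 genes, 23 had another probe set with a mean of 8 or more, and for 15 of them at least 1 of these had r of 0.7 or more with the one chosen. The readings of FASN, HKDC1, CYP2C18, GSTT1L, HBAD, TPPP and ETNPPL ran in parallel at r of 0.96 or more. For FASN and TPPP the other probe set was the brighter one, and it varied less. That of FASN had an SD of 0.83 at a mean of 15.07, beside 1.22 on the one chosen. That of TPPP had an SD of 0.80 at a mean of 10.84, beside 1.17. Both thus failed the limit on the SD, although they followed the same order of birds closely. For 8 genes no other probe set with a mean of 8 or more reached r = 0.7, namely ACACA, ALDH8A1, C4, C4H4ORF32, CA5A, DYNC1H1, MRPS6 and ZCCHC11. A dimmer probe set of ACACA, at a mean of 7.34, had r = 0.97, while a dimmer one of AvBD1, at a mean of 7.43, had r = -0.50. In several of the 8 genes a much brighter probe set hardly varied. CA5A had an SD of 0.19 at a mean of 12.82, MRPS6 0.23 at 13.32, DYNC1H1 0.17 at 10.96, C4 0.19 at 12.98 and ALDH8A1 0.29 at 12.39. The spread given above for these 5 genes thus belonged to 1 dimmer probe set each. ZCCHC11 had other probe sets at means of 9.43 and 9.24, both dimmer than the one chosen. They had SDs of 0.24 and 0.27, beside 1.02 on the one chosen, and r of 0.42 and 0.69 with it.

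NACA and BLB1 gave mixed readings. The 3 other probe sets of NACA with a mean of 8 or more were brighter, with SDs of 0.27 to 0.39 and r of 0.77, -0.81 and -0.70. For BLB1 the 3 brighter probe sets had SDs of 0.27 to 0.46 and r of -0.60 to -0.53, while another bright one, which the limit on the gap left out, had r = 0.98 and an SD of 3.55. In all, 38 genes were read on the brightest probe set of the gene and 11 on a dimmer one, and 26 had no second probe set at a mean of 8 or more. A total of 15 genes were read on probe sets ending in _s_at or _x_at, which can also read related transcripts, CYP7A1, AvBD7, HKDC1, CATH1 and SAA among them.

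**Figure D5:**
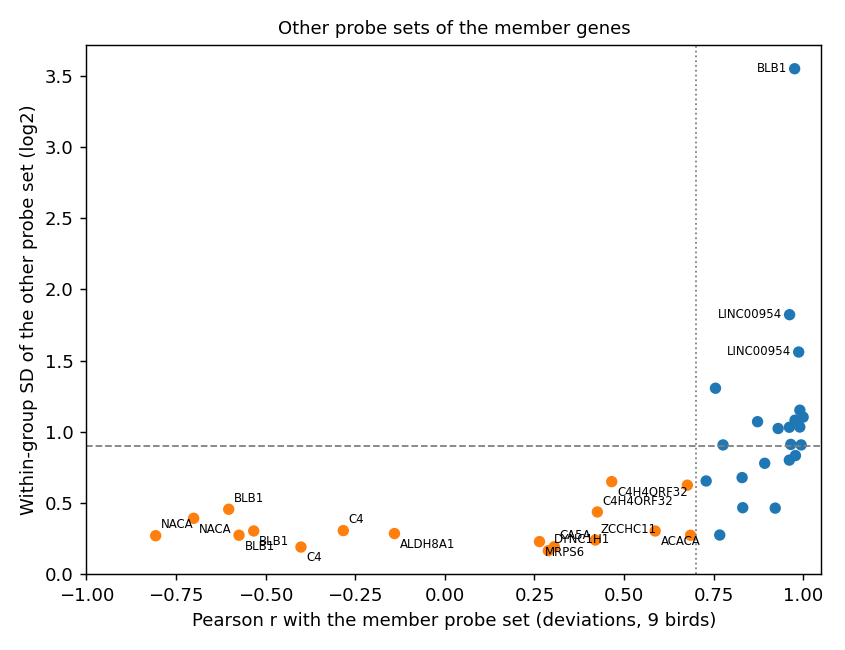
Each point is another probe set (mean of 8 or more) of a gene among the 49, placed by the correlation of its deviations with those of the probe set chosen (x axis, Pearson r over 9 birds) and by its own within-group SD in log2 units (y axis). The dotted line marks r = 0.7 and the dashed line an SD of 0.9. The points below r = 0.7, in orange, all have SDs under 0.9.

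The diet groups were compared to ask whether any of these genes also differed with the supplement. Among all 23063 probe sets tested with limma, 0.026% passed an adjusted p of 0.05, and of the 49 genes 0 passed. The smallest limma adjusted p among the 49 was 0.9986. At an unadjusted limma p under 0.05 stood 5 of the 49, a larger share than the 4.67% of all probe sets. The 5 were CHAC1, MT4, HHLA2, SPIA3 and MT3. They were not all separate, as MT4 had r = 0.98 with MT3 and 0.78 with SPIA3. In 0 of the 49 the groups did not overlap, against 1.64% of all. A large spread within groups was the condition for entry, and it lowers the chance of passing.

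The smallest p-values were those of CHAC1, MT4 and HHLA2, whose signals are given above. CHAC1 stood 1.69 higher in Se-yeast birds on the log2 scale (95% interval 0.47 to 2.92; limma adjusted p = 0.999), and its groups overlapped. MT4 stood 1.53 higher (0.36 to 2.70) and HHLA2 stood at -1.45 (-2.61 to -0.29), both at an adjusted p of 0.999. FASN stood at -0.85 (-2.18 to 0.48) and SCD at -0.95 (-2.48 to 0.58), both with an interval that includes 0. Those values rested on Se-yeast replicates 4 and 5: FASN stood at -0.41 without replicate 4 and -0.43 without replicate 5, and SCD at -0.55 and -0.50. Over the 49 genes 18 differences were positive and 31 negative, with a median of -0.31, beside 0.02 over all probe sets tested. None of the 30 genes tested in the list of fatty acid and triglyceride synthesis, the 20 of cholesterol synthesis or the 15 of antimicrobial peptides passed in either direction.

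Across the arrays as a whole, median signals lay between 100.8 and 125, and correlations between arrays between 0.933 and 0.956. Of 5 array measures, each set against diet with an exact permutation test, the smallest two-sided p was 0.0714 (adjusted p = 0.357), for the mean correlation with the other arrays. No 2 arrays were identical over all of their values. The 49 genes spread over many chromosomes, with 6 on chromosome 3 and 5 on chromosome 5 as the largest numbers. Of the 24 function lists read, 9 held at least 1 of the 49, which left 30 genes in none. That count depends on the symbols listed, as the cathelicidin gene CATH1 and the hexokinase family gene HKDC1 are among the 30.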

How the data were processed

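Liver RNA of 9 broilers was measured on 1-colour arrays, 1 per bird. The deposited values are linear probe set intensities that the authors made with MAS5, per the submitters' processing notes; the sources used here give no version. On each array the mean signal between the 2nd and 98th percentiles was 499.9, so differences are relative to the rest of an array. Trizol extraction, a column clean-up and biotin labelling came before, per the labels. Arrays have no read depth, and their number limits the precision.

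From the deposited intensities, log2(signal + 16) was computed here after 96 control probe sets were left out. Genes were named from 27168 probe sets with 1 symbol in the platform annotation, while 177 had several and 11094 none. The RefSeq table of GRCg7b, which matched 48 of the 49 genes, gave chromosomes and gene order only. No sequences or coordinates were used. The rule and the fit were tested on simulated data. limma 3.58.1 in R 4.3.3 (lmFit, eBayes with trend) was run without covariates over 23063 probe sets at or above the 40th percentile of the mean (6.33), two-sided, with Benjamini-Hochberg adjustment over all of them. Intervals have 95% confidence. Python 3.11.15 with pandas 2.3.3 and scipy 1.17.1 did the rest.

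The genes, lists and tests were chosen with earlier results of these data known. The rule for naming took the 25 genes with the largest SD, up to 6 in each list and cluster, the 3 with the smallest diet p, those at each limit of the rule, the 3 most like the leading gene of a cluster, genes on chromosomes Z and W, and markers. The other AvBD genes, ME1, THRSP, AACS, HMGCS1, HADHB, CYP4V2, LPL, SQLE, LSS, MVD and the members outside that rule were named after their values were seen, as were the birds singled out. Alternatives changed the pseudocount, scaling, filter, limits of the rule, clustering, covariates and the birds included.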

Additional observations from a re-analysis of the deposited data

Results flagged for a closer look

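In each group of each of the 49 genes, 98 groups in all, the highest or lowest bird was checked for a gap to its nearest neighbour that takes up most of the group's range (Dixon's ratio, above 0.829 for 4 birds or 0.710 for 5). Chance flags about 1 group in 20, and 6 of the 98 were flagged. Among controls these were CPT1A, lowest in control replicate 3 with a ratio of 0.870, MRPS6, highest in control replicate 2 with 0.857, and BF2, lowest in control replicate 1 with 0.849. Among Se-yeast birds they were BLB1, lowest in Se-yeast replicate 1 with 0.783, CA4, highest in Se-yeast replicate 3 with 0.766, and GSTT1L, lowest in Se-yeast replicate 1 with 0.765. The rule that chose the genes asked for a large spread, so such birds are part of how the set was made.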

How the results depend on the processing

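The set held 47 genes with a pseudocount of 1 and 47 with 64 (47 and 44 of them shared with the 49), 52 after quantile normalisation and 53 after median centring (49 shared in each). It held 38 when the brightest probe set of a gene had to meet the rule, 54 without the limit on the gap, 38 at a mean of 10 or more and 74 at a mean of 8 or more. Leaving out 1 bird at a time gave 43 to 58 genes, of which 38 to 46 were shared. A W-chromosome covariate gave 41, but it rested on 2 probe sets whose levels did not part the birds. Deviations of same-numbered birds of the groups had r of -0.11, 0.04, 0.02 and -0.00, inside the range of -0.20 to 0.19 between differently numbered birds. The labels do not say whether the numbers pair the birds, and these values cannot decide it. With the replicate number as a block the set held 61 genes, 33 of them shared, and 0 passed the diet test. With that block the SDs of the 5 granule genes fell to between 0.60 and 0.79, from 1.23 to 1.52, so all left the set; with the W-chromosome covariate all but LECT2 did, at 0.77 to 0.87. The count of genes past the diet threshold was 0 in all 18 alternatives run, and the smallest adjusted p was 0.412, without Se-yeast replicate 2. Clusters of 4 or more held 14 genes at r = 0.7 and 18 at r = 0.6, which added a cluster of MT3, MT4, TIMP2 and SPIA3. By Spearman correlation they held 21, with the granule and FASN clusters whole and the CPT1A cluster split. At r = 0.8 only the granule cluster, 5 genes, was left. At an SD of 0.7 or more, 19 of the 24 function lists held a gene in place of 9. With 1 array per bird, spread between birds and between arrays cannot be told apart. The cause of these shifts was not tested.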

Other observations

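The limit on the gap left out 5 genes that met every other part of the rule, ACSBG2, AGMO, CYP2C23b, MHCY4 and SUCLG2. ACSBG2, which encodes an acyl-CoA synthetase, had signals of 4865, 6692, 5717 and 6181 in control replicates 1 to 4 and 6431, 7524, 6438, 677 and 642 in Se-yeast replicates 1 to 5, lowest by far in Se-yeast replicates 4 and 5, and had r = 0.94 to the mean of the FASN cluster. NDUFS3, a subunit gene of respiratory complex I, had r = 0.96 to the same mean, with 779.9, 795, 1635 and 1499.6 in control replicates 1 to 4 and 1389, 1724, 1026, 514 and 382 in Se-yeast replicates 1 to 5. TENM2, a teneurin gene, had r = 0.87 to the mean of the CPT1A cluster, with 666, 441, 708 and 527 in control replicates 1 to 4 and 602, 581, 1126, 2783 and 2803 in Se-yeast replicates 1 to 5. These genes were chosen after their values were seen, and the correlations over 9 birds carry no test.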
